A study of Mus musculus with 2 samples.

Results

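The 27 genes described here are enzymes of cholesterol synthesis together with the proteins that control them through the sterol regulatory element-binding proteins (SREBPs). They were taken from a fixed list of symbols, all 27 were found by symbol and gene ID, and they stand among 55536 annotated genes. The samples were adrenal glands of female B6CASTF1/J mice aged 10 days. B6CASTF1/J is the F1 hybrid between the strains C57BL/6J and CAST/EiJ. The series holds 1 group of 2 libraries (replicate 1 and replicate 2), each a directional total RNA-seq library with reduced ribosomal RNA, 300 ng of input and ERCC spike-in RNA. There was no treatment, no mutant allele and no second condition, so the levels describe this tissue and the differences describe 2 libraries. The labels number the libraries as biological replicates, but they name 2 different females in one field and repeat 1 female and 1 donor entry in others. The number of animals behind n = 2 is therefore not settled, and each SD below measures only the spread between these samples, which may be technical.

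Cells make cholesterol from acetyl-CoA. The mevalonate arm builds isoprenoid units, these are joined to farnesyl diphosphate and squalene, and squalene is closed to lanosterol and then trimmed to cholesterol in the endoplasmic reticulum (ER). When ER sterol is low, the escort SCAP carries SREBP to the Golgi, where the site-1 and site-2 proteases release its active part. When sterol is high, INSIG proteins hold SCAP and SREBP in the ER. The adrenal cortex uses cholesterol as the starting material of all its steroid hormones, and it can obtain it by uptake from lipoproteins as well as by synthesis.

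The promoters are shown first because the sequence elements that SREBPs and their partners read are a textbook feature of this pathway. SREBP binds sterol regulatory elements and acts together with NF-Y, which binds CCAAT, and Sp1, which binds GC boxes. The stretches below come from RefSeq (GRCm38.p6) and lie just upstream of each gene's RefSeq start, without bases that an annotated exon covers. They are written 5′ to 3′ on the strand of the gene, in lower case, with CCAAT on either strand (CCAAT or ATTGG) and the sterol motif TCACNCCAC in capitals. Hmgcs1 is shown as the gene of highest level and the holder of the sterol motif, Mvk for its 5 CCAAT boxes, Mvd as the gene of lowest level, Srebf2 and Insig1 as control genes, and Acat2 as a highly expressed gene with no CCAAT box.
Hmgcs1: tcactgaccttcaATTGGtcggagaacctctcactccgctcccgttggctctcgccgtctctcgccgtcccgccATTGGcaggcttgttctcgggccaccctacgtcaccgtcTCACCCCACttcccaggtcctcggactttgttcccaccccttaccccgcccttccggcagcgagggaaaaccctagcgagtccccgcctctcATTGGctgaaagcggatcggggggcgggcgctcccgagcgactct
Mvk: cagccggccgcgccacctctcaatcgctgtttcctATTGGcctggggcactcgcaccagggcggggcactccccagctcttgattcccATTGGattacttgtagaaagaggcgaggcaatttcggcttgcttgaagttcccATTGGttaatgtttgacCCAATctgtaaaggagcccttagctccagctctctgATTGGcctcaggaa
Mvd: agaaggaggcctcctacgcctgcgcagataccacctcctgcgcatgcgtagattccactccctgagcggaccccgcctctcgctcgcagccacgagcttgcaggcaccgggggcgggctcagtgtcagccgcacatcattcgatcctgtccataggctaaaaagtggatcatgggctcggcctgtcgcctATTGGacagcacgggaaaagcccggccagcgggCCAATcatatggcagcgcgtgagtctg
Srebf2: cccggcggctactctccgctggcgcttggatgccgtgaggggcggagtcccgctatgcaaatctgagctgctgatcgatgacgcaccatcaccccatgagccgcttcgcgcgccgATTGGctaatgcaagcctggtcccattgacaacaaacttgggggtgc
Insig1: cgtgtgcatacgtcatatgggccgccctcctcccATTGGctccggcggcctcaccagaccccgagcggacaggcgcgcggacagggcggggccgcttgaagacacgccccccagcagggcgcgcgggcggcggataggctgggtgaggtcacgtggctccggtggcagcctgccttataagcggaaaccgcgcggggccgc
Acat2: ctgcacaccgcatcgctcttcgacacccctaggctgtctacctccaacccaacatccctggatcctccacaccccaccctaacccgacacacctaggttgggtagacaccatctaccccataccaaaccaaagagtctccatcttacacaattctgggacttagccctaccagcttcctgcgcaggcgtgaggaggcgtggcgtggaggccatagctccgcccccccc
The Hmgcs1 stretch is chr13:119690101-119690350 on the plus strand, and the Mvk stretch is chr5:114444061-114444268 on the plus strand. The Mvd stretch is chr8:122443423-122443672 on the minus strand, and the Srebf2 stretch is chr15:82147019-82147180 on the plus strand. Insig1 is given for chr5:28071162-28071362 on the plus strand and Acat2 for chr17:12960748-12960975 on the minus strand. The Hmgcs1 stretch holds 3 CCAAT boxes and 1 sterol motif, and the sterol motif begins 137 bases before the RefSeq start.

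Promoter windows of 300 bases (250 before the RefSeq start and 50 from it on) were found for 23 of the 27 genes. Fdps, Fdft1, Sqle and Stard4 were not in the promoter table. CCAAT was found on either strand in 19 of 23 genes (82.6%), compared with 41.1% of 27025 genes with a window and 43.0% of the 10003 detected protein-coding genes with one. Acat2, Mbtps1, Mbtps2 and Scap held none. The GC box GGGCGG was found in 20 of 23 genes (87.0%), compared with 38.2% of all genes and 69.2% of the detected protein-coding genes. Both motifs stood in 17 of 23 genes (73.9%), compared with 29.6% of the detected protein-coding genes. This count is per gene and includes Insig2, whose CCAAT and GC boxes lie in different windows. These shares describe the letters in the windows, and no test was made on them.

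The sterol motif TCACNCCAC was found in Hmgcs1 alone (1 of 23, 4.35%), where its letters were TCACCCCAC, compared with 1.44% of all genes with a window. With up to 1 mismatch it was found in 10 of 23 (43.5%), compared with 26.7% of all genes. The E-box type motif ATCACGTGA was found in 0 of 23 and in 0.374% of all genes. TCACCCCAC is one of the 4 spellings of TCACNCCAC, so those counts are not separate. Some windows do not lie at the start of the transcript that carried the expression. For 17 of 23 genes a RefSeq start lay within 100 bases of the start of the most abundant transcript, and 12 of those 17 (70.6%) held CCAAT in the 250 upstream bases. The RefSeq start of the Insig2 window with CCAAT lies 4565 bases upstream of the start of Insig2-201, the most abundant Insig2 transcript, and the window at Insig2-201 held none. In Pmvk the RefSeq start of the window with CCAAT lies 4577 bases upstream of the start of Pmvk-201. The RefSeq start of the Dhcr7 window with 2 CCAAT boxes lies 588 bases downstream of the start of Dhcr7-202.

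**Figure D1:**
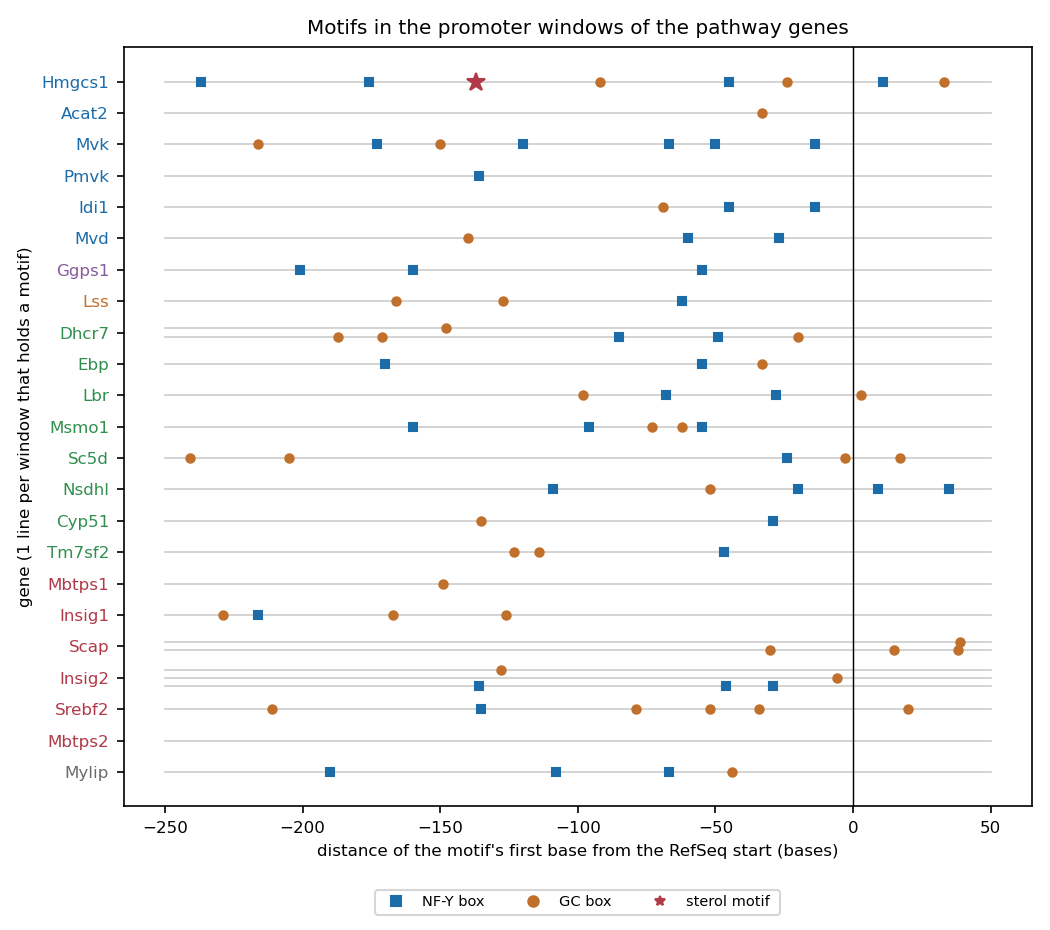
Positions of the NF-Y box, the GC box and the sterol motif in the promoter windows of 23 genes. The x axis is the distance in bases of a motif's first base from the RefSeq start, each grey line is a window, and further lines are drawn only for genes with motifs in more than 1 window. NF-Y boxes stand in 19 genes, GC boxes in 20, and the sterol motif in Hmgcs1 only.

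Libraries held 35636846 and 33378436 expected counts in replicates 1 and 2, and the 27 genes took 40016 (0.112%) and 38492 (0.115%) of them. Levels are given in TPM, a scale of transcript abundance corrected for length and set over all features, of which protein-coding genes made up 34.0% and 32.7%. The labelled tissue was checked against its markers. All 7 adrenal cortex markers and 5 of 6 chromaffin markers reached 10 TPM in both libraries. Markers of neighbouring tissues were present and unequal. The summed TPM of 8 hepatocyte markers was 5647 in replicate 1 and 1089 in replicate 2, that of 8 kidney tubule markers 1.16 and 227.6, that of 8 skeletal muscle markers 3064 and 1143 (5 of them called higher in replicate 1 and 1 in replicate 2), and that of 6 brown fat markers 3158 and 3758. In bulk RNA of a whole gland, fewer cells of a type and less RNA per cell cannot be told apart, and the genes below are used by many cell types. How much RNA from the neighbouring tissues contributed to them was not tested.

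All 27 genes were detected, which means at least 1 TPM in both libraries, compared with 12800 of 22015 protein-coding genes (58.1%). At least 10 TPM in both was reached by 12 of 27 (44.4%), compared with 27.8% of protein-coding genes. The median of the 27 mean levels was 10.2 TPM, beside 10.1 TPM over detected protein-coding genes, so as a list they sat in the middle of the expressed range. Single genes spread from Mvd at 2.67 TPM, above 12.8% of the detected protein-coding genes, to Hmgcs1 at 87.4 TPM, above 95.2% of them. The lowest gene inside the 10 TPM limit was Lbr with 11.9 and 11.6 TPM. Just outside stood Ggps1 with 10.6 and 9.84 TPM, Msmo1 with 9.70 and 13.2 TPM, and Sc5d with 11.2 and 8.66 TPM. Placed in the order of their means, 11 of 26 neighbouring pairs of genes had values that did not overlap between the libraries. The order is therefore firm for some steps only.

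**Figure D2:**
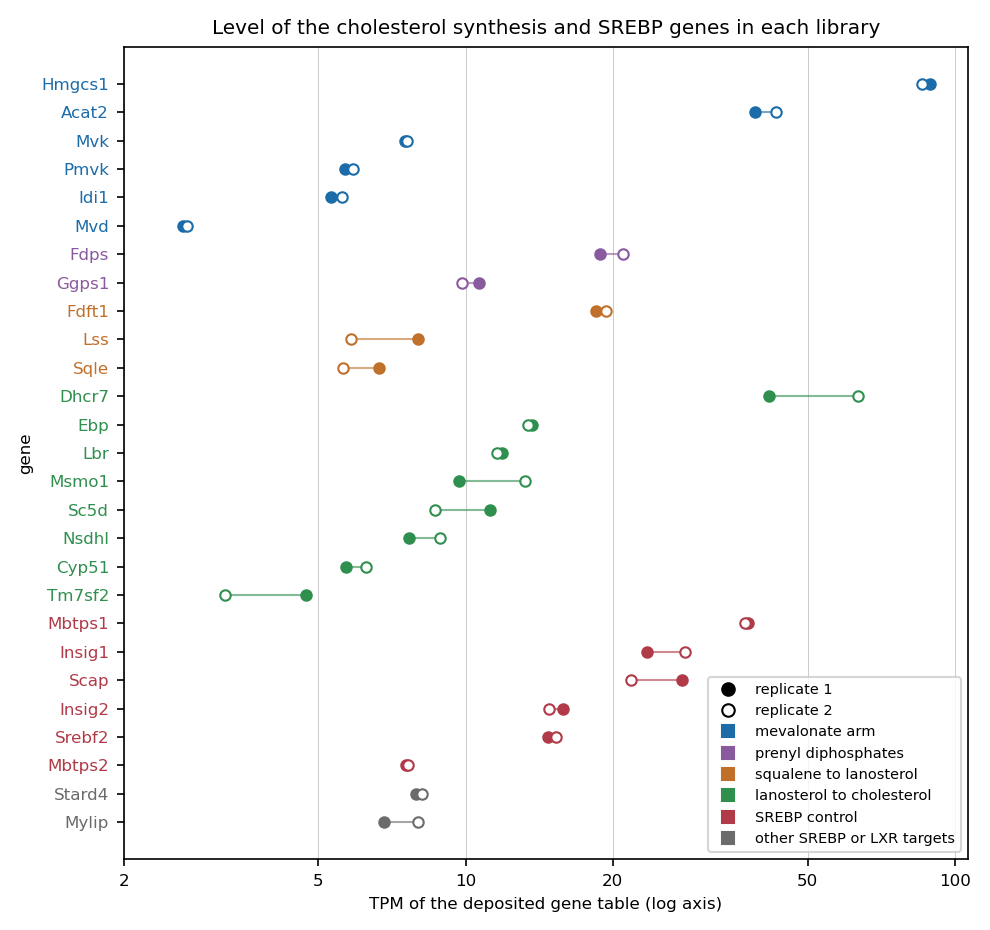
TPM of each of the 27 genes in replicate 1 (filled) and replicate 2 (open), on a log axis, coloured and grouped by role. Hmgcs1 lies highest at 89.2 and 85.7 TPM, Mvd lowest at 2.64 and 2.70 TPM, and Dhcr7 has the widest gap among the genes above 20 TPM.

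The mevalonate arm was the most uneven group. Hmgcs1, the cytosolic HMG-CoA synthase that makes the precursor of mevalonate, stood at 89.2 TPM in replicate 1 and 85.7 TPM in replicate 2 (87.4 ± 2.45 TPM, SD, n = 2). It ranked 618th of the 12800 detected protein-coding genes and lies at chr13:119690379-119708260 on the plus strand of mm10. Acat2, the cytosolic thiolase that joins the first acetyl units, stood at 39.1 and 43.1 TPM (41.1 ± 2.82 TPM). These were the high genes of the arm, and their values did not overlap. The kinases Mvk (7.52 and 7.60 TPM) and Pmvk (5.66 and 5.90 TPM), which add phosphates to mevalonate, were several times lower. Mvd, which removes the carboxyl group to form isopentenyl diphosphate, was the lowest of all 27 genes at 2.64 and 2.70 TPM (2.67 ± 0.0424 TPM). It lies at chr8:122433601-122443422 on the minus strand and rested on 148 and 140 counts. Idi1, the isomerase that interconverts the isoprenoid units, stood at 5.32 and 5.59 TPM. Its paralog Idi2 was listed at 0 in both libraries. The median of the 6 genes was 6.67 TPM although their sum, 149.4 and 150.6 TPM, was the largest of the roles.

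At the branch to prenyl lipids, Fdps, which makes farnesyl diphosphate, stood at 18.8 and 20.9 TPM (19.9 ± 1.53 TPM). Ggps1, which lengthens it to geranylgeranyl diphosphate for protein prenylation, stood at 10.6 and 9.84 TPM (10.2 ± 0.566 TPM). Fdft1, the squalene synthase that commits farnesyl diphosphate to sterols, stood at 18.4 and 19.3 TPM (18.9 ± 0.629 TPM). Fdft1 exceeded Ggps1 by 0.88 ± 0.13 in log2 TPM (SD, n = 2), with 0.79 in replicate 1 and 0.97 in replicate 2. The next steps were lower. Sqle, the squalene epoxidase, stood at 6.65 and 5.61 TPM (6.13 ± 0.735 TPM), and Lss, the cyclase that closes the ring to lanosterol, stood at 8.00 and 5.82 TPM (6.91 ± 1.54 TPM). Both lay below Fdft1 in each library.

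Of the 8 genes that turn lanosterol into cholesterol, Dhcr7 stood apart. Dhcr7, the reductase of the last step through 7-dehydrocholesterol, had 41.7 TPM in replicate 1 and 63.4 TPM in replicate 2 (52.6 ± 15.4 TPM), the second highest level of the 27 genes. It lies at chr7:143823145-143848410 on the plus strand. Ebp, the sterol isomerase, stood at 13.7 and 13.4 TPM, and Lbr, a nuclear envelope protein that is also a sterol C14 reductase, at 11.9 and 11.6 TPM. The C4 demethylation enzymes Msmo1 (9.70 and 13.2 TPM) and Nsdhl (7.66 and 8.86 TPM) and the desaturase Sc5d (11.2 and 8.66 TPM) followed. Cyp51, the P450 that removes the C14 methyl group, stood at 5.69 and 6.27 TPM. Tm7sf2, the other C14 reductase, was lowest of this group at 4.73 and 3.22 TPM. The level of Tm7sf2 was below that of Lbr by -1.59 ± 0.37 in log2 TPM (-1.33 in replicate 1 and -1.85 in replicate 2). That order held in both libraries, and the size of the gap depended on the quantification, as described with the transcripts.

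The control genes were the role with the highest median, 20.01 TPM over 6 genes, and 5 of the 6 reached 10 TPM in both libraries. Srebf2, the SREBP that mainly drives sterol genes, stood at 14.7 and 15.3 TPM (15.02 ± 0.431 TPM) and lies at chr15:82147181-82205379 on the plus strand. Scap stood at 27.7 and 21.8 TPM (24.7 ± 4.21 TPM). Of the proteases, Mbtps1 (site-1) stood at 37.7 and 37.3 TPM and Mbtps2 (site-2) at 7.56 and 7.64 TPM, so that Mbtps1 exceeded Mbtps2 by 2.30 ± 0.02 in log2 TPM. Insig1, the INSIG that is itself a classic SREBP target, stood at 23.5 and 28.1 TPM (25.8 ± 3.30 TPM), and Insig2 at 15.8 and 14.8 TPM (15.3 ± 0.714 TPM). Insig1 exceeded Insig2 by 0.57 in replicate 1 and 0.93 in replicate 2 on the log2 scale (0.75 ± 0.25). Srebf1, the paralog that mainly drives fatty acid genes, was above Srebf2 at 61.1 and 48.4 TPM, and the log2 ratio of Srebf2 to Srebf1 was -2.05 and -1.66 (-1.86 ± 0.28). With 2 libraries no exact test of such a ratio can go below a two-sided p of 0.5, so none was made.

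Both remaining genes act on sterol traffic. Mylip, a ubiquitin ligase induced through the oxysterol receptors (LXRs) that lowers lipoprotein uptake, stood at 6.80 and 7.99 TPM (7.395 ± 0.841 TPM). Stard4, a sterol transfer protein of the cytosol, stood at 7.91 and 8.16 TPM. Against its paralog, Acat2 was below the mitochondrial thiolase Acat1 (122.6 and 120.5 TPM) by -1.57 ± 0.12 in log2 TPM.

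Most of these genes were carried by 1 annotated transcript. The most abundant transcript held at least 50% of the gene's TPM in 24 of 27 genes (88.9%), compared with 68.1% of 11657 detected protein-coding genes with at least 2 transcripts. This count depends on the quantification, since 19 of 27 genes reached 50% in the second one described below. The most abundant transcript was the same one in both libraries in 25 of 27 genes (92.6%, compared with 89.2%). Nsdhl-201 held 99.0% and 98.1% of the Nsdhl TPM in replicates 1 and 2, Idi1-201 98.6% and 100%, Sqle-201 97.2% and 97.3%, and Insig1-201 89.7% and 92.1%. Transcripts that are not typed protein-coding (retained introns, processed transcripts, decay targets) held a median of 7.34% over the 27 genes, compared with 13.6% in the background genes. The highest shares were those of Fdft1 and Lss. In Fdft1 such transcripts held 35.9% and 40.9% of the TPM, and in Lss 64.5% and 57.1%.

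A second deposited quantification of the same libraries named the same most abundant transcript in 19 of 27 genes (70.4%), compared with 75.6% of the background genes. Hmgcs1 was assigned to Hmgcs1-202 in the gene-table quantification (85.5% and 80.0%) and to Hmgcs1-201 in the other (73.2% and 81.8%). Mvd was assigned to the coding Mvd-201 in the first (92.2% and 100%) and to Mvd-202, annotated as a nonsense-mediated decay transcript, in the second (75.4% and 99.9998%). Mbtps1 moved from Mbtps1-201 (73.0% and 75.6%) to Mbtps1-202 (62.2% and 55.2%). In Lbr the short coding transcript Lbr-205 held 1.19% and 4.12% in the first and 44.5% and 35.5% in the second. Which transcript the gland makes is therefore not settled for those genes, while gene totals differed less. On a scale of protein-coding genes only, the second quantification stood at a median of -0.07 log2 relative to the first over the 27 genes (-0.12 in all detected protein-coding genes), with Lbr highest at 0.73 and 0 genes at 2-fold. The Tm7sf2 to Lbr ratio widened from -1.59 to -2.44 in log2 TPM between them.

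**Figure D3:**
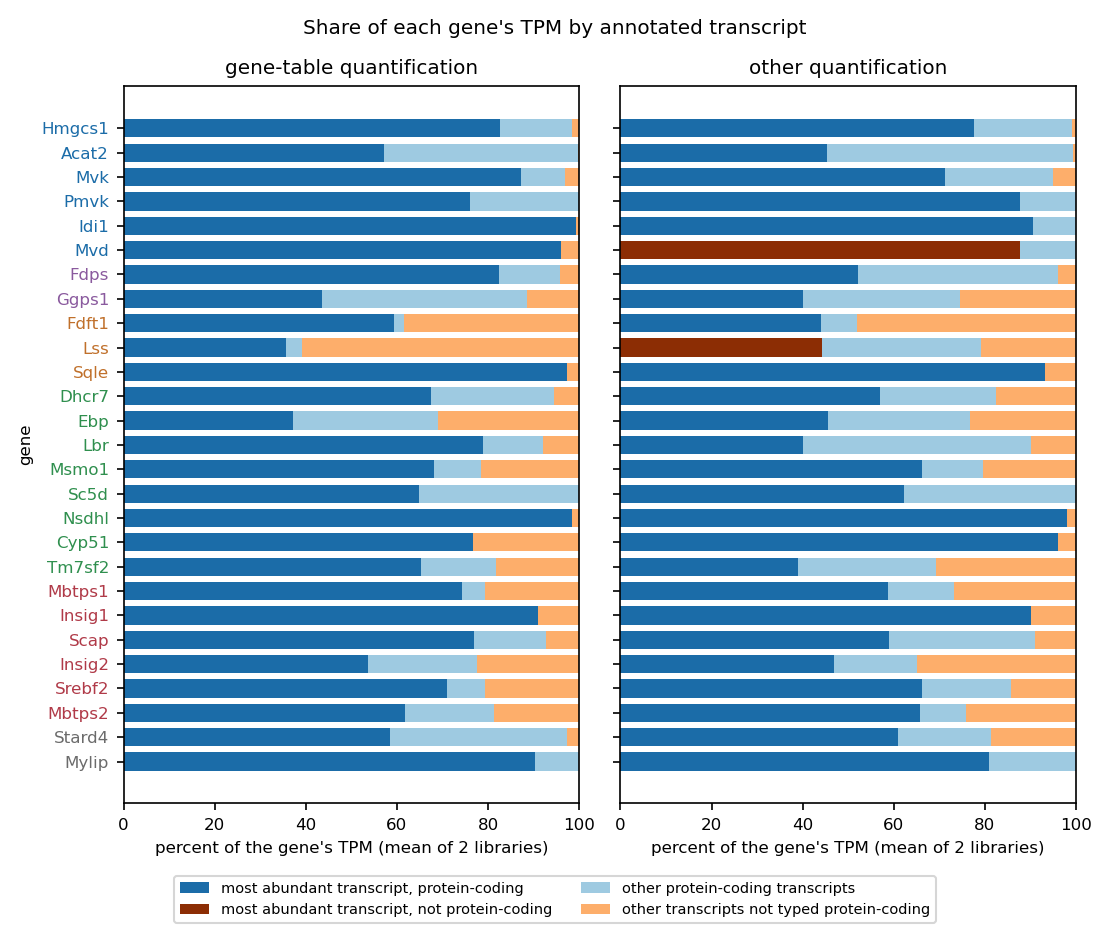
Percent of each gene's TPM (mean of both libraries) in its most abundant transcript and in its other transcripts, split by transcript type, in the gene-table quantification (left) and in the other one (right). The most abundant transcript is coding in all 27 genes on the left by the mean of the libraries, while Mvd and Lss have a transcript that is not typed coding on the right.

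Some counts could include reads of other genes, and whether counting used the strand is unknown (not given in the sources used here). Exon bases are shared with another gene in 11 of the 27 genes. The largest neighbours by level were Ctsb, on the opposite strand to Fdft1 over 774 bases (181.5 and 184.9 TPM), Akap9, opposite to Cyp51 over 166 bases (25.0 and 22.3 TPM), and Vps51, on the strand of Tm7sf2 over 532 bases (20.2 and 20.6 TPM). The levels of Fdft1, Cyp51 and Tm7sf2 are uncertain to that extent. Stretches of at least 200 bases with at least 95% identity to another gene were found for 5 genes. Of the 10 genes that held such copies, Acat3 (3.00 and 1.11 TPM), a copy of Acat2, and Gm13502 (1.43 and 1.64 TPM), a copy of Idi1, reached 1 TPM in both libraries. Mvk and Mmab, which makes the cobalamin cofactor, start 209 bases apart in opposite directions, and Mmab stood at 5.77 and 5.57 TPM beside the 7.52 and 7.60 TPM of Mvk. Nsdhl and the centrin gene Cetn2 start 146 bases apart in the same way, with 13.0 and 12.4 TPM for Cetn2.

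The libraries were then compared by an exact binomial test (two-sided) of each gene's scaled counts, adjusted by the Benjamini-Hochberg method over 18883 genes. The test compares 2 libraries, not conditions, and its intervals cover counting error only. At an adjusted p of at most 0.05 and at least 2-fold, 0 of 27 genes were called, against a background of 6.85% of all genes tested. At 1.5-fold, 1 of 27 was called (Dhcr7), against 9.73%. By adjusted p alone, 11 of 27 differed, against 26.5% of all genes. All genes tested include those with as few as 20 summed counts. Of 12244 protein-coding genes with at least 250, 518 were called at 2-fold. By adjusted p alone 3797 of these differed, 2179 higher in replicate 2 and 1618 higher in replicate 1. Counted over all 27 genes, 8 were higher in replicate 2 by adjusted p, against 14.0% of all genes. In replicate 1, 3 of 27 were higher, a share near the background of 12.5%. That split depends on scaling, since with total counts in place of TMM factors it became 4 higher in replicate 2 (against 9.74% of all genes) and 6 higher in replicate 1 (against 19.4%). The median log2 ratio of replicate 2 over replicate 1 was 0.09 over the 27 genes and -0.01 over all genes tested. Ratios were above 0 for 18 of the 27 genes, compared with 8994 of the 18883 genes tested. Of the 12244 protein-coding genes with at least 250 summed counts, 6411 were above 0.

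Dhcr7 had 2850 counts in replicate 1 and 4114 in replicate 2. It was 1.61-fold higher in replicate 2 (95% interval 1.53 to 1.69, exact binomial test, adjusted p 1.85e-84), and its log2 ratio stayed between 0.62 and 0.70 over the scalings tried. Among 12244 protein-coding genes with at least 250 summed counts, 5.67% had a larger absolute ratio. Its neighbour Nadsyn1, which starts 296 bases away in the opposite direction, stood at 4.91 and 5.18 TPM with a log2 ratio of 0.09. Both major Dhcr7 transcripts were higher in replicate 2, with 28.4 and 42.4 TPM for Dhcr7-202 and 7.51 and 9.38 TPM for Dhcr7-208.

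Insig1 was the next, with 1897 and 2152 counts and a 1.26-fold higher level in replicate 2 (1.19 to 1.35, exact binomial test, adjusted p 1.59e-12). Insig2 went the other way, with 915 and 670 counts, 1.23-fold higher in replicate 1 (1.11 to 1.36, adjusted p 0.000432 in the exact test). Scap, with 2946 and 2327 counts, was 1.14-fold higher in replicate 1 (exact test, adjusted p 3.4e-05), and Lbr, with 1236 and 972 counts, was 1.14-fold higher there (exact test, adjusted p 0.0105). Higher in replicate 2 were Acat2 (1.16-fold), Stard4 (1.21-fold), Nsdhl (1.19-fold), Msmo1 (1.18-fold), Mylip (1.16-fold) and Fdps (1.151-fold). Hmgcs1, the gene with the most counts, had a log2 ratio of -0.01, and the interval of its fold by counting error was 0.962 to 1.02. Srebf2 (log2 ratio 0.08), Mbtps1 (0.07) and Mbtps2 (-0.02) did not pass the test. Mvd, Pmvk and Tm7sf2 had the fewest counts. The log2 ratio of Tm7sf2, -0.30, was as low as that of Insig2, but its fold had an interval of 0.648 to 1.02, so a difference was not detectable at this depth.

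For some genes the ratio in TPM differed from the ratio in counts. Lss had 8.00 and 5.82 TPM, a log2 ratio of -0.46, while its counts gave -0.03. The share of Lss-202, a transcript of 352 bases, was 30.1% of the Lss TPM in replicate 1 and 15.9% in replicate 2, beside the 4667 bases of the coding Lss-201. The ratio in TPM was 0.45 for Msmo1 against 0.24 in counts, and -0.55 for Tm7sf2 against -0.30. The ratio shrank in TPM for Insig2 (-0.10 against -0.29), Lbr (-0.03 against -0.19) and Stard4 (0.04 against 0.28), which passed the test on counts. In TPM of the second quantification the ratio was -0.18 for Insig2, 0.05 for Lbr and -0.01 for Stard4. Scap (-0.35 against -0.18) and Mylip (0.23 against 0.22) also passed on counts and had a larger ratio in TPM. The deposited 95% credibility intervals of TPM did not overlap between the libraries in 5 genes: Dhcr7, Acat2, Insig1, Scap and Sc5d. Those of Insig2, Lbr and Stard4 overlapped. The deposited TPM of Tm7sf2 in replicate 2, 3.22, lay outside its own interval of 3.38 to 5.10.

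**Figure D4:**
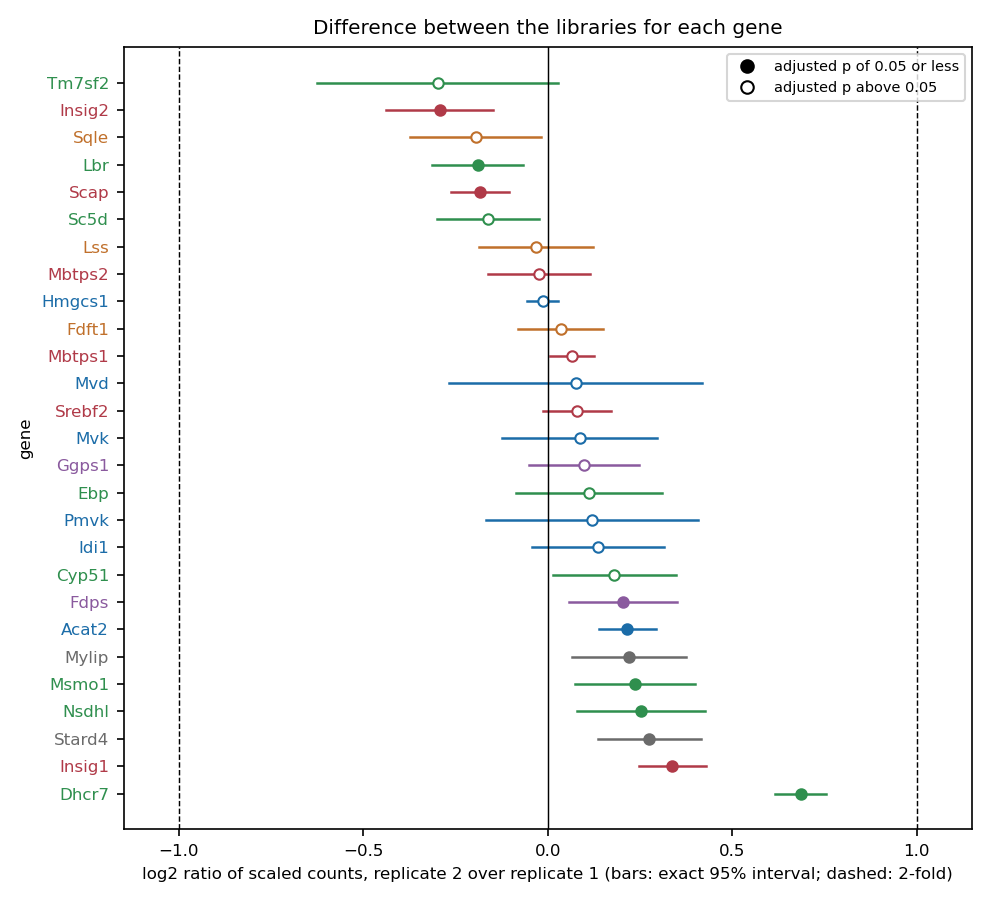
Log2 ratio of scaled counts, replicate 2 over replicate 1, for each of the 27 genes with its exact 95% interval. Filled points have an adjusted p of 0.05 or less, and the dashed lines mark 2-fold. Dhcr7 lies farthest right at 0.69, Insig1 follows at 0.34, and no gene reaches a dashed line.

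The 5 companion lists cover pathways that feed or use this one, and 0 of their genes were called at 2-fold. The 12 lipogenic genes driven mainly by SREBP-1 all reached 10 TPM in both libraries. Summed over the list they reached 722.4 and 813.5 TPM in replicates 1 and 2. The median log2 ratio was 0.20, and by adjusted p alone 10 of 12 were higher in replicate 2, against 14.0% of all genes, and 1 (Srebf1) in replicate 1, against 12.5%. With total count scaling 9 were higher in replicate 2, against 9.74% of all genes, and 1 in replicate 1, against 19.4%. Acly, which supplies cytosolic acetyl-CoA to both pathways, stood at 125.5 and 159.8 TPM, and the desaturase Fads2 at 113.7 and 125.8 TPM. Elovl6, the fatty acid elongase, was named after its value was seen. It had 11.98 and 19.95 TPM and the highest log2 ratio of the list at 0.85. Beside this list, the fat markers summed to 1991 and 2380 TPM and the brown fat markers to 3158 and 3758 TPM. Most of the fat sum was Fabp4 (1535 and 1922 TPM), while Plin1 (306 and 304 TPM) and Adipoq (146.0 and 148.2 TPM) differed little. The median log2 ratio was 0.10 for the fat markers and 0.26 for the brown fat markers. The part of fat tissue in the lipogenic list was not tested.

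The 12 genes of prenyl use, such as the farnesyltransferase subunit Fnta (30.3 and 29.99 TPM), had a median log2 ratio of 0.09, and 2 of them were higher in replicate 2 by adjusted p, a share near the background of 14.0%. The 12 ER partners of sterol sensing and degradation, such as Vcp (83.2 and 80.8 TPM), had a median of 0.03. By adjusted p, 2 were higher in replicate 2 and 1 in replicate 1, shares near the 14.0% and 12.5% of all genes. With total count scaling these became 0 and 2, against 9.74% and 19.4% of all genes. Sterol transfer genes had a median of 0.04 and 5 of 12 higher in replicate 2, again against 14.0% of all genes. With total count scaling 3 were, against 9.74% of all genes. Scp2, a sterol carrier, stood at 146.5 and 147.7 TPM and Gramd1b, which moves plasma membrane cholesterol to the ER, at 98.2 and 96.2 TPM. Of 12 oxysterol and LXR genes, 10 were detected, with Abca1, the cholesterol exporter, at 34.1 and 35.7 TPM and Nr1h2, an LXR, at 29.9 and 29.5 TPM. Ch25h, a cholesterol hydroxylase named here after its values were seen, stood at 0.18 and 0.07 TPM.

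Some of the tissue markers differed far more than the pathway genes, and others did not. Median log2 ratios were -2.34 for the hepatocyte markers, with 8 of 8 called higher in replicate 1, and 8.37 for the kidney tubule markers, with 8 of 8 called higher in replicate 2. The adrenal cortex markers had a median of 0.10 with 0 of 7 called at 2-fold, and the chromaffin (-0.09), endothelium (0.06) and brown fat (0.26) markers also had 0 called. Star, which carries cholesterol into mitochondria, stood at 571.8 and 824.3 TPM (log2 ratio 0.59). The part of the tissue mix in the Dhcr7 and Insig1 differences was not tested.

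**Figure D5:**
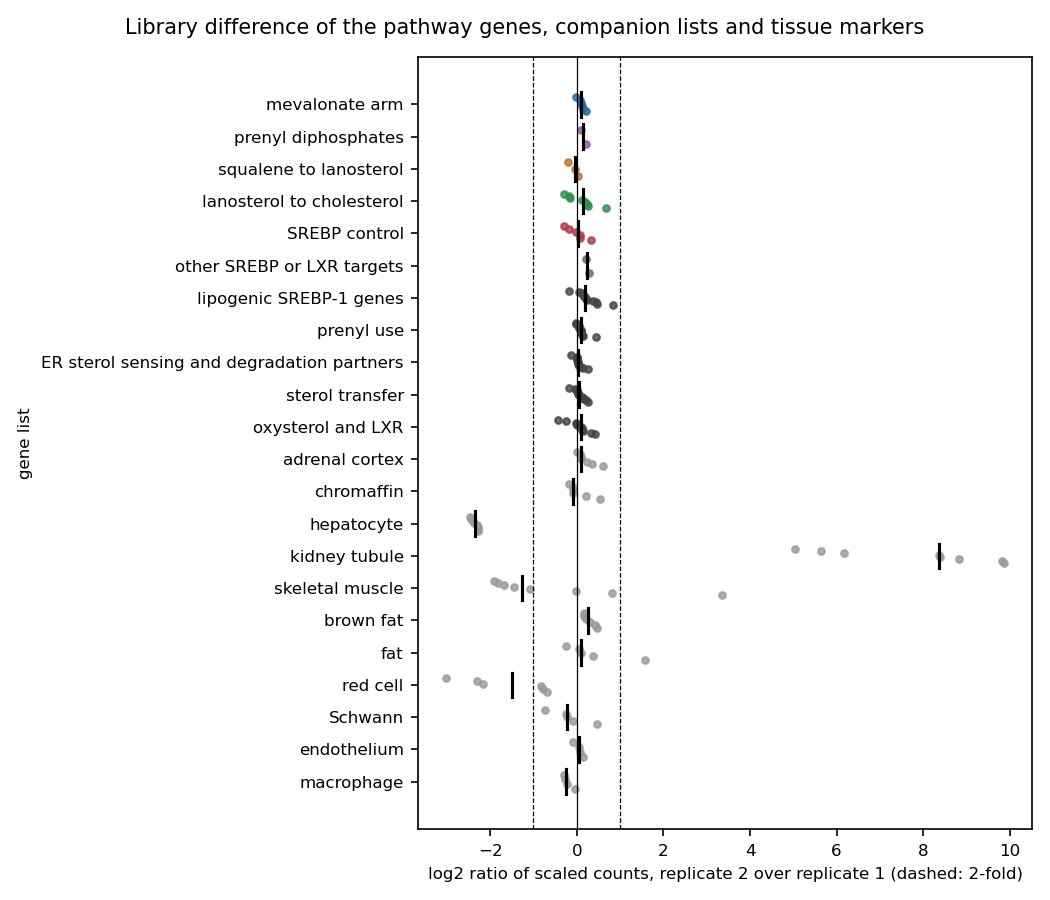
Log2 ratio of scaled counts, replicate 2 over replicate 1, for the genes of each pathway role (coloured), each companion list (dark) and each tissue marker list (light), with the list median as a bar and 2-fold as dashed lines. The pathway roles lie between the dashed lines, while the hepatocyte markers centre on -2.34 and the kidney tubule markers on 8.37.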

How the data were processed

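Total RNA-seq of 2 adrenal libraries of 1 group was used. The deposited gene tables hold expected counts and TPM, with the bounds of 95% credibility intervals of TPM (a signal range), and the deposited transcript tables add each transcript's percent of its gene's TPM. A second deposited set of transcript tables holds estimated counts and TPM. Column names are those of RSEM and kallisto per the file headers, and the assembly (mm10) and annotation (M21) are named in the deposited notes. The tools' versions, use of strand and treatment of CAST/EiJ variants are unknown (not given in the sources used here). Reads of the CAST/EiJ allele may map less well to mm10. Features with a bare number as ID (1.96e-05% and 1.80e-05% of counts) stayed out of library sizes and tests.

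Libraries were compared on rounded expected counts, summing to at least 20 per gene, with TMM factors (edgeR 4.0.16, R 4.3.3), an exact two-sided binomial test, Benjamini-Hochberg adjustment at 0.05 and a 2-fold limit (scipy 1.17.1, Python 3.11.15). Log2 ratios use a prior count of 0.5, and intervals are exact Clopper-Pearson at 95%. With 1 group no quasi-likelihood test was possible. The comparison was tested on simulated data. Similar sequences were sought with blastn 2.17.0. Promoters are RefSeq sequences, with 18 of 23 checked for orientation against the annotated transcripts and 0 reversed. All 27 genes of the list are named, ordered by role. Companion lists are described by counts and medians with genes of highest TPM named, and other genes are named where they overlap or neighbour a member or mark a tissue. A few listed genes are not reported here. Members and lists were chosen with earlier results of these data known. Other scalings (total counts, DESeq2 1.42.0 size factors, ERCC), limits, pseudocounts and the second quantification were tried as alternatives, and for the companion lists the scalings were added after seeing the data.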

Additional observations from a re-analysis of the deposited data

How the results depend on the processing

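Leaving out either library leaves the value of the other, which the text prints for each gene. No paired analysis was possible because there is 1 group. The median level of the 27 genes was 17.3 TPM in the second quantification and 30.7 TPM when TPM was set over nuclear protein-coding genes only, beside 10.2. At a limit of 10 TPM, 12 genes were detected. Calls between the libraries rose from 0 to 1 at 1.5-fold and to 11 without a fold limit. The median log2 ratio fell to 0.024 with total count scaling and to 0.024 as a difference of log2(TPM + 1). Paired log2 ratios moved by more than their SD for Tm7sf2/Lbr (-2.44), Acat2/Acat1 (-2.35) and Mbtps1/Mbtps2 (2.46) in the second quantification and for Mbtps1/Mbtps2 with a pseudocount of 1 (2.16). Genes with the sterol motif rose to 10 with 1 mismatch. Of 162 recomputed log2 ratios, 154 kept their direction and 8 reversed, and 0 genes were called at 2-fold under the other scalings. With TMM factors, the largest ratios among the reversed were those of Ebp (0.11) and Ggps1 (0.10). By adjusted p alone, total counts ended the call of 4 genes and added 3, the ERCC scale added 1, the second quantification ended 1 and added 1, and DESeq2 size factors changed 0. Reversed ratios were those of Hmgcs1 on the ERCC scale (1.98e-05), Fdft1 with total counts (-0.028), and Mvd (-0.0047) and Mbtps2 (0.040) in the second quantification. The others reversed as differences of log2(TPM + 1), namely Ebp (-0.030), Ggps1 (-0.10), Mbtps1 (-0.015) and Mbtps2 (0.013). The cause of the reversals was not tested. Transcript shares moved by more than their SD in 18 of 27 genes in the second quantification. Leaving out a library cannot move a share beyond the SD of 2 values, so those settings were not counted.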
